A study of Mus musculus with 2 samples.

Results

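The genes described here encode C-type lectins and paired receptors of the myeloid and natural killer cell surface. They were picked out by gene name, in a list drawn up with earlier results of these data known: the Clec, Cd300, Siglec, Lilr, Pir and Klr families together with Olr1, Igsf6, Msr1, Cd33 and Cd22. On the mouse Gene 1.0 ST array 80 of these genes were measured by a probe set that names that gene alone, of 19935 genes in all. RefSeq lists 97 genes whose symbols match, so 17 were not measured alone. Of those 17, 14 share a probe set with close relatives and 3, Cd300ld2, Clec2f and Klra11-ps, are named by no probe set.

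C-type lectins carry a domain that binds sugars, lipids or proteins on microbes, dead cells and other host cells. Many of these receptors come in pairs of close relatives. The activating member signals through an ITAM, a tyrosine motif in its own tail or in an adaptor such as DAP12 (Tyrobp) or the Fc receptor gamma chain (Fcer1g), to the kinase Syk, and the inhibitory member carries an ITIM, a motif that recruits the phosphatases SHP-1, SHP-2 or SHIP-1. Macrophages, dendritic cells, granulocytes and mast cells are the usual sites of the Clec, Cd300, Siglec and Pir receptors, and natural killer cells of the Klr receptors.

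The RNA came from Ba/F3, a mouse interleukin-3 (IL-3) dependent line of pro-B type, that carried the BCR-ABL fusion kinase. Both groups carried BCR-ABL, grew in RPMI with 10% serum and received the ABL inhibitor imatinib at 5 µM for 6 h; one group was grown with IL-3 and the other without it. The study asked how cells due to survive imatinib (with IL-3) differ from cells due to die (without IL-3). Each group was 1 array, of cells titled as live. No test between the conditions was therefore possible, and differences below compare 2 arrays. The labels of the IL-3 array conflict, since its description says that IL-3 was absent while title and source name say that it was present; the titles were followed. The deposited values are logs, taken as log2, set against a per-probe-set baseline that the sources used here do not give. A value thus says where an array lay against that baseline, not how abundant the transcript was, and presence or absence of a lineage marker could not be read. That more RNA gives a larger value was assumed and is likewise unstated. If the sign or the labels were turned, every "lower with IL-3" below would read "higher".

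A small number of the receptor genes stood far lower with IL-3, and the bulk of the family lay close to 0 in both arrays. A log2 difference (with IL-3 minus without IL-3) of at least 1 in size, that is 2-fold, was reached by 6 of the 80 genes, all of them lower with IL-3: Olr1, Igsf6, Clec12a, Clec7a, Cd33 and Pirb. Of all genes, 0.657% were lower by that rule, against 7.5% of the receptor genes. Olr1, Igsf6 and Cd33 are in the set because they were named singly, with earlier results known, so the share of 7.5% is a description only. Of the 75 genes taken in by family name, 3 (4.0%) were at least 2-fold lower. The families too were listed with earlier results known, so the share of 4.0% is likewise a description only. On the other side 0 receptor genes were at least 2-fold higher, where 0.441% of all genes were. At 1.5-fold the counts were 9 lower and 0 higher (all genes, 2.71% and 3.52%), and at a log2 difference of 0.5 they were 10 lower and 0 higher (all genes, 3.73% and 4.99%). The median difference of the 80 genes was -0.01, beside 0.04 over all genes, and 43 of the 80 (53.8%) had a difference below 0, beside 40.1% of all genes. From here on, below 0 and above 0 refer to the difference unless an array is named. Without the 6 genes past 2-fold, 37 of the remaining 74 lay below 0 and 37 above. In RNA from a whole culture, fewer cells of a type and less RNA per cell cannot be told apart.

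**Figure D1:**
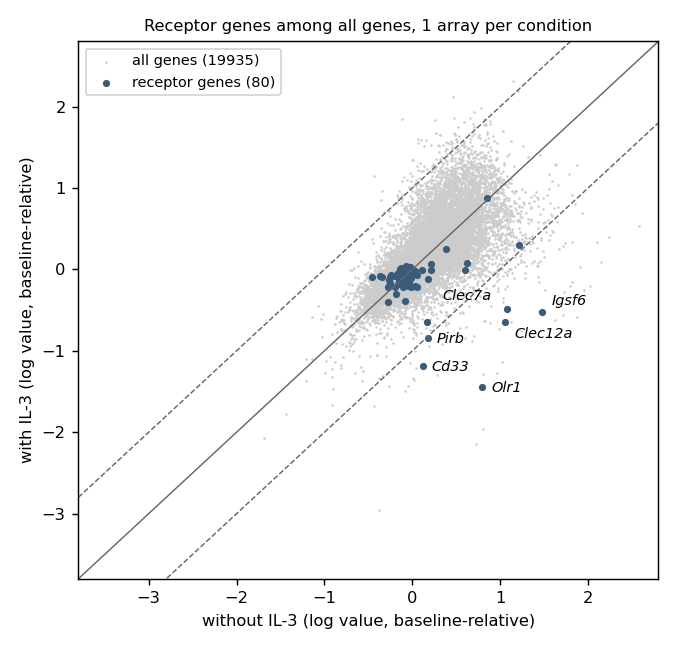
Deposited log value of each gene in the array without IL-3 (horizontal axis) against the array with IL-3 (vertical axis), both relative to the probe set's baseline and taken as log2, for 19935 genes (grey) and the 80 receptor genes (blue). The solid line marks equal values and the dashed lines a 2-fold difference; 6 receptor genes lie below the lower dashed line and 0 above the upper one.

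No replicate gives the error of these differences. Among 998 genes with several probe sets, the difference varied between probe sets of 1 gene with a pooled SD of 0.14, which covers measurement within these arrays only. Each of the 6 genes rested on 1 probe set; among the receptor genes only Clec4g had several, with differences of 0.03 and -0.03. The scatter of all genes also depended on where they lay against the baseline: the robust spread of the difference (scaled median absolute deviation) ranged from 0.10 to 0.42 between the 25% bins of genes by the mean of both arrays. Since a gene's own difference helps to set its mean, no bin was taken as the error of a single gene.

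Olr1 encodes LOX-1, a lectin-like scavenger receptor that takes up oxidised low-density lipoprotein. Its value was -1.45 with IL-3 and 0.79 without, a difference of -2.24 or 4.72-fold, which ranked 8 among all genes counted from the lowest difference. Msr1, the class A macrophage scavenger receptor, was at -0.17 with IL-3 and -0.13 without, so this other scavenger receptor gene was nearly level between the arrays. Igsf6, an immunoglobulin-domain membrane protein of dendritic and other myeloid cells, was at -0.52 with IL-3 and 1.48 without (4.0-fold lower, rank 17). Without IL-3, Igsf6 lay farther above its own baseline than any other receptor gene, which does not rank the amounts of their transcripts.

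Clec7a encodes Dectin-1, the receptor for fungal beta-glucan, which engages Syk and CARD9 through a tyrosine motif of its own. Its value was -0.48 with IL-3 and 1.08 without, a 2.95-fold lower value with IL-3 (difference -1.56). The other 7 Syk-coupled lectins did not reach 2-fold. Clec4d, which with Clec4e (Mincle) senses mycobacterial glycolipid, was at 0.07 with IL-3 and 0.62 without (difference -0.54). Clec4e lay above its probe set's baseline in both arrays, at 0.87 and 0.85. Clec4e was the only receptor gene above 0.5 with IL-3, and 8 were above 0.5 without it. All of those except Clec4e were among the genes whose difference was at least 0.5 in size. The 2 counts therefore restate those differences, and the share of all genes above 0.5 was not counted. Clec5a, a receptor that signals through DAP12, was the highest of the group by difference, at -0.10 with IL-3 and -0.35 without (0.25). Clec4n (Dectin-2), Clec1b (the podoplanin receptor CLEC-2) and Clec9a (a receptor for exposed actin of dead cells) differed by -0.09, -0.07 and 0.12, all within the probe set SD. The group median was -0.04, with 5 of 8 (62.5%) below 0, beside 40.1% of all genes.

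Among lectins with an inhibitory motif, Clec12a was the one apart. It encodes an ITIM receptor of myeloid cells that senses uric acid crystals and dead cells, and it was at -0.64 with IL-3 and 1.06 without (difference -1.70, 3.24-fold lower). Its relatives Clec12b and Clec4a2 differed by 0.03 and 0.02. The activating Clec7a and the inhibitory Clec12a therefore differed in the same direction and by similar amounts.

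Pirb, the ITIM receptor for MHC class I on B cells and myeloid cells, was at -0.84 with IL-3 and 0.18 without. The difference of -1.02 (2.03-fold) lay just past the 2-fold mark, and after quantile normalization of the arrays it was -0.95. Lilra6, a neighbour of Pirb in the paired immunoglobulin-like receptor locus, was at 0.00 with IL-3 and 0.60 without (difference -0.60). These genes are near-identical in parts, and 2 further probe sets that name Pirb, Lilra6, Pira1 and Pira2 together with 2 predicted genes differed by -0.30 and -0.56. All 5 genes of the Lilr and Pir families had differences below 0, where 40.1% of all genes did, and their median was -0.13. The differences of Lilr4b, Lilra5 and Lilrb4a (the inhibitory receptor gp49B) lay between -0.13 and -0.12.

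Siglecs bind sialic acid on the cell's own surface or on neighbours. Cd33, the myeloid member, was at -1.18 with IL-3 and 0.12 without (difference -1.30, 2.46-fold lower). Cd22, the Siglec of B cells, was at -0.07 with IL-3 and -0.24 without (0.17). Siglecg, another B cell member, and Siglecf, the eosinophil member, differed by -0.31 and -0.21. In this group 6 of 8 genes (75%) were below 0, beside 40.1% of all genes, and the median was -0.14.

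**Figure D2:**
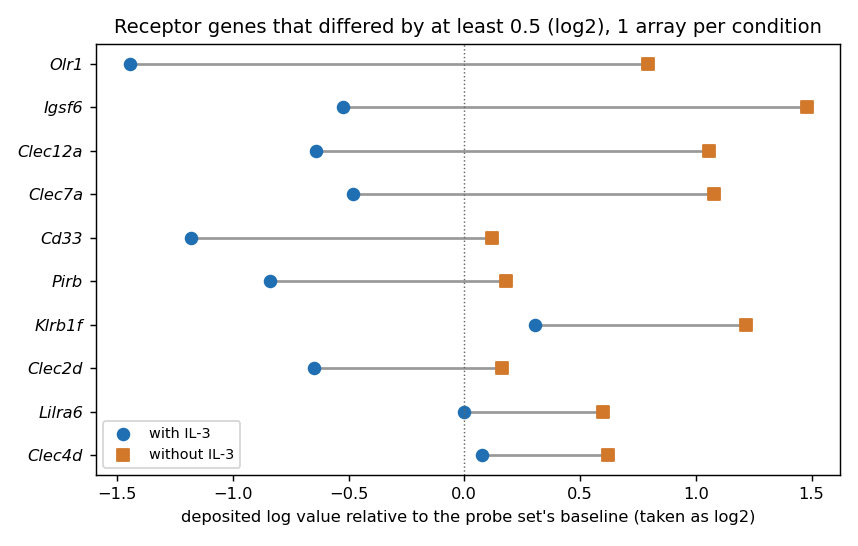
Deposited log values with IL-3 (blue circles) and without IL-3 (orange squares), relative to the probe set's baseline and taken as log2, of the 10 receptor genes that differed by at least 0.5; each symbol is 1 array, so no error bar can be drawn. All 10 lay above 0 without IL-3, and 8 of them lay below 0 with IL-3.

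The natural killer type receptors showed little difference. Of 23 Klr genes, 9 (39.1%) were below 0, close to the 40.1% of all genes, and the median difference was 0.01. Klrb1f, an NKR-P1 family receptor, was the exception at 0.30 with IL-3 and 1.22 without (difference -0.91, 1.88-fold), the first gene short of 2-fold. Klra3, a Ly49 receptor gene, had the highest difference of all 80 receptor genes, 0.37 (-0.09 with IL-3, -0.46 without). All 6 Klra genes measured alone had differences above 0, from 0.00 to 0.37 with a median of 0.12, though their values without IL-3 lay below the baseline. Above 0 is also where most genes lay, 11929 of 19935. The 4 probe sets that name several Klra genes differed by -0.01 to 0.04, so the value of Klra3 was not seen in the probe sets it shares with its relatives. Klrk1 (NKG2D) and Klrd1 (CD94) differed by -0.15 and 0.11.

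Several Clec2 genes encode ligands for the NKR-P1 receptors. Clec2d, whose product Clr-b engages the inhibitory receptor encoded by Klrb1b, was at -0.65 with IL-3 and 0.16 without (difference -0.81, 1.75-fold). Clec2i, Clec2h, Clec2g and Clec2j followed with differences of -0.30, -0.26, -0.23 and -0.21, and Clec2e differed by 0.04. These 6 genes had a median of -0.25 with 5 (83.3%) below 0, beside 40.1% of all genes. Clec2m and Clec2l, which were grouped with the other Clec genes, differed by 0.05 and 0.09, so 5 of the 8 Clec2 genes measured were below 0, with a median of -0.22. Klrb1b differed by 0.08.

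The Cd300 family pairs activating and inhibitory receptors for lipids of dying cells. Its 8 genes ranged from -0.14 for Cd300lf, an inhibitory member, to 0.17 for Cd300lb, an activating one, with a median of -0.04. The 2 probe sets shared by Cd300ld3, Cd300ld4 and Cd300ld5 differed by 0.16 and 0.13. The 16 other Clec genes include secreted and endocytic lectins. They ranged from -0.12 for Clec4b2 to 0.29 for Clec3a, a cartilage lectin, with a median of 0.04. Of these 16, 4 (25%) were below 0, beside 40.1% of all genes.

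**Figure D3:**
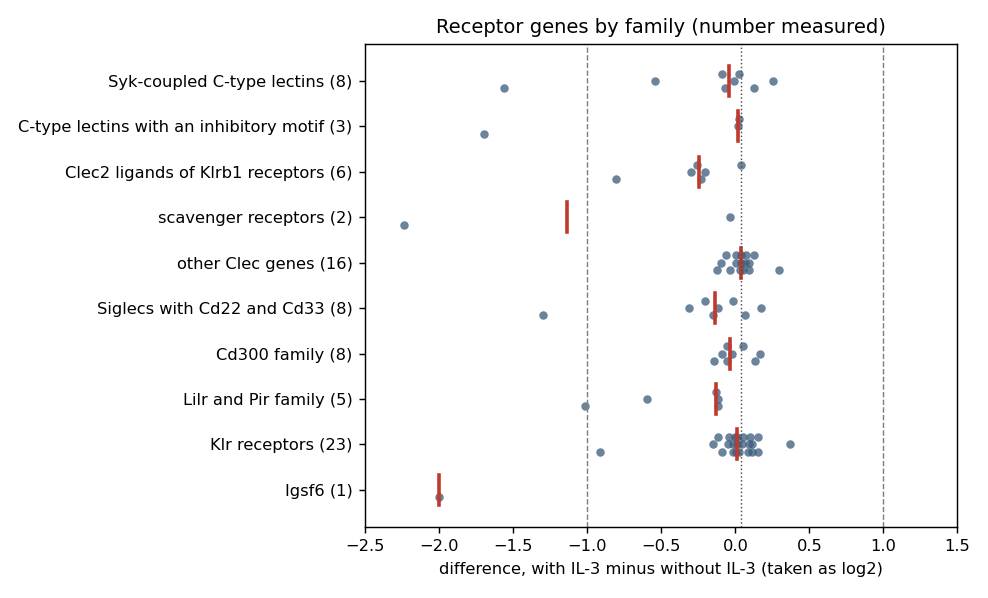
Difference between the arrays (with IL-3 minus without IL-3, taken as log2) of each of the 80 receptor genes, by family, with the number measured in parentheses; red bars mark group medians, dashed lines 2-fold and the dotted line the median of all genes, 0.04. Most group medians lie near 0, the pair of scavenger receptors, Igsf6 and the Clec2 ligands (median -0.25) aside. In several groups 1 or 2 genes lie far to the left.

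Most of the lectin and Klr genes are neighbours. By the RefSeq order of GRCm38.p6, 49 of the 80 receptor genes lie on chromosome 6 and 11 on chromosome 7. Each of these chromosomes held 3 of the 6 genes past 2-fold. That split rests partly on Olr1, Igsf6 and Cd33, which were named singly with earlier results known. The shares of all genes by chromosome were not counted. The natural killer gene complex on chromosome 6, from Klrb1a to Klra2, held 39 measured genes, 35 of them receptor genes. Olr1 and Clec7a stood side by side among them. Between Clec7a and Clec12a lay Clec12b, Clec1b, Clec9a and Clec1a, with differences of 0.03, -0.07, 0.12 and 0.13, so the difference did not run through the whole stretch. Of the 4 other genes in the complex, Cd69, a lectin-like activation antigen, lay between Clec2d and Clec12a and was at 0.80 with IL-3 and 1.85 without (difference -1.05, 2.07-fold). The remaining 3, Tmem52b, Gabarapl1 and Mir680-1, differed by -0.17, -0.42 and -0.34.

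**Figure D4:**
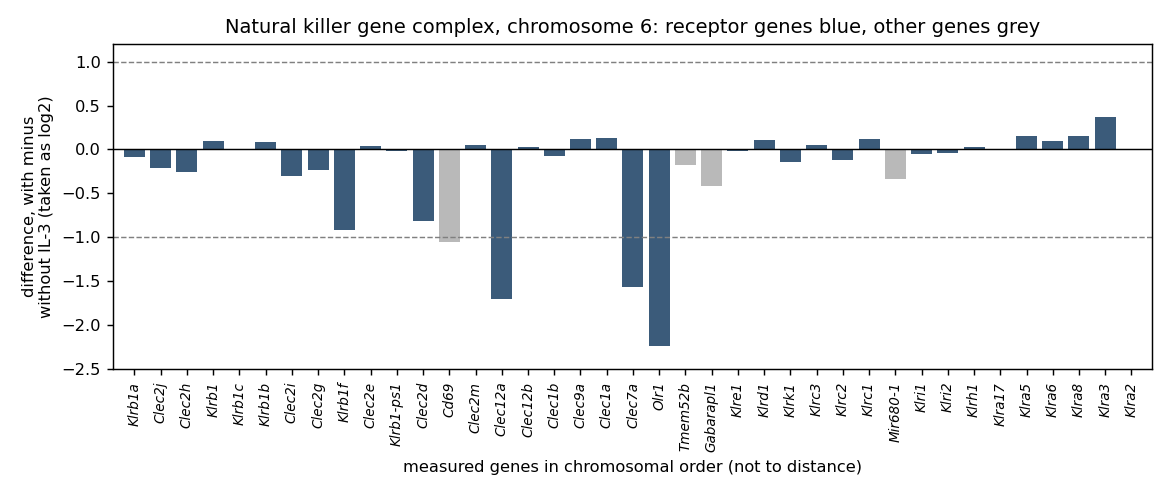
Difference between the arrays (with IL-3 minus without IL-3, taken as log2) of the 39 measured genes of the natural killer gene complex on chromosome 6, in chromosomal order and not spaced by distance; receptor genes are blue, the 4 other genes grey, and dashed lines mark 2-fold. Clec12a, Clec7a, Olr1 and Cd69 pass the lower line, with near-level genes between them.

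The start regions of the 6 genes past 2-fold are shown with those of Clec12b, Clec1b and Clec9a, which lie between Clec12a and Clec7a and differed by less than the probe set SD, so that neighbours can be compared. Clec1a, the remaining gene of that stretch, had no window in the table used. Each is the 250 bases before the RefSeq start in GRCm38.p6, 5′ to 3′ on the gene's strand; of the 2 starts listed for Clec7a the one farther upstream was used. Capitals mark matches on both strands to GAGGAA (the core bound by ETS factors such as PU.1), to TGANTCA (AP-1), to TTCNNNGAA (STAT factors) or to TTGNGNAA (C/EBP factors). The windows lie at chr6:129507166-129507415 (minus strand) for Olr1, chr7:121074531-121074780 (minus) for Igsf6, chr6:129349994-129350243 (plus) for Clec12a and chr6:129472786-129473035 (minus) for Clec7a. Those of Cd33 and Pirb lie at chr7:43533172-43533421 (minus) and chr7:3720383-3720632 (minus), and those of Clec12b, Clec1b and Clec9a at chr6:129385504-129385753 (minus), chr6:129397047-129397296 (plus) and chr6:129408612-129408861 (plus).
Olr1: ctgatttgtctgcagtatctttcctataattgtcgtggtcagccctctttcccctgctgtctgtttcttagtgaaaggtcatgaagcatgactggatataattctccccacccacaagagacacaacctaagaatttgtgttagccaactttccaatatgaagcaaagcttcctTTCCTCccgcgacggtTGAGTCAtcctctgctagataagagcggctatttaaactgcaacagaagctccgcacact
Igsf6: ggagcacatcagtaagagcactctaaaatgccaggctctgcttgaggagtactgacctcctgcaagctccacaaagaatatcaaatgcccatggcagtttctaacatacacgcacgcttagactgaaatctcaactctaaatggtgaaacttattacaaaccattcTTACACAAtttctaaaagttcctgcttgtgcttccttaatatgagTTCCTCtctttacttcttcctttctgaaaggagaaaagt
Clec12a: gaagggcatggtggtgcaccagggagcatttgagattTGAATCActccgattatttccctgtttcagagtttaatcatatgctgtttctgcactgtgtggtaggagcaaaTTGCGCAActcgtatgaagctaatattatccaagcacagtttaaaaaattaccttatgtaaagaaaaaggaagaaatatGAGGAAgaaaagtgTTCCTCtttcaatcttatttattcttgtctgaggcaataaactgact
Clec7a: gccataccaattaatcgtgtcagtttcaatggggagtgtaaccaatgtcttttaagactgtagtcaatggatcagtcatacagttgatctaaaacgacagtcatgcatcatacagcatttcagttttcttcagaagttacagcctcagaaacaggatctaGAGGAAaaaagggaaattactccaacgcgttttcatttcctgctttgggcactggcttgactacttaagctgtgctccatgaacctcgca
Cd33: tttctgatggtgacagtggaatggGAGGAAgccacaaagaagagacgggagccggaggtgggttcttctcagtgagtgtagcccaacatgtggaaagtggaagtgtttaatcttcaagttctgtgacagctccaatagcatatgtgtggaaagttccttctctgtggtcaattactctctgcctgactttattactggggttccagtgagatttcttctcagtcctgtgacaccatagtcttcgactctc
Pirb: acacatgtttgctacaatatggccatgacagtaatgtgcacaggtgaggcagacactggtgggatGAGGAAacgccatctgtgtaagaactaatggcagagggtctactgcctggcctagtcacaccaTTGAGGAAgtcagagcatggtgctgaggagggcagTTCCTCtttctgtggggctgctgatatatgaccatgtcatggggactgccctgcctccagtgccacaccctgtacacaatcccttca
Clec12b: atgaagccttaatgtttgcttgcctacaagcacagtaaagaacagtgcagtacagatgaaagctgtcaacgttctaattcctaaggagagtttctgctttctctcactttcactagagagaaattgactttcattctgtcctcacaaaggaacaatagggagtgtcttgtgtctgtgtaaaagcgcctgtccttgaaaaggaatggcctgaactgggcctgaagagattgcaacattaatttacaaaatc
Clec1b: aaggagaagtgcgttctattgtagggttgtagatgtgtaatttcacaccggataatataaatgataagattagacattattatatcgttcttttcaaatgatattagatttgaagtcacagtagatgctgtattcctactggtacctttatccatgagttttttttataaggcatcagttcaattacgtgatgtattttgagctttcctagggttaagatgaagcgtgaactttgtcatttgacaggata
Clec9a: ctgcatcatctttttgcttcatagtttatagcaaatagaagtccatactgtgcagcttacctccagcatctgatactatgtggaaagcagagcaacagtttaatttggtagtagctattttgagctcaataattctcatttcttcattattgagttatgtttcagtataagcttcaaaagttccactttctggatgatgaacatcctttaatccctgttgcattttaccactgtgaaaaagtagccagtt

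All 6 windows of the genes past 2-fold held the ETS letters, 1 to 3 times, between 34 and 226 bases before the start, and the windows of Clec12b, Clec1b and Clec9a held none of the 4 motifs. The ETS letters occur in 23.3% of all 32851 RefSeq start windows of this length and in 32 of the 58 other receptor genes that have a window (55.2%), so they are frequent across the family, also among its genes within 2-fold. In Olr1 the ETS match at 76 to 71 bases before the start was followed by the AP-1 match at 60 to 54. Clec12a held the AP-1 letters as well, at 213 to 207 bases (6.75% of all windows, 6.90% of the other receptor genes). The C/EBP letters stood in Igsf6, Clec12a and Pirb (11.7% of all windows, but 16 of the 58 other receptor genes, 27.6%), overlapping an ETS match in Pirb. The STAT letters stood in 0 of the 6 (7.02% of all windows, 10.3% of the other receptor genes). A match describes letters and shows no binding.

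The differences of the adaptors, kinases and phosphatases beneath these receptors lay mostly below 0. Of 36 listed genes 33 were measured alone; 24 (72.7%) were below 0, beside 40.1% of all genes, and the median was -0.12, beside 0.04. By at least 0.5, 9 (27.3%) were lower, beside 3.73% of all genes, and 0 were higher, beside 4.99%. At 2-fold, 1 (3.03%) was lower and 0 were higher, beside 0.657% and 0.441% of all genes. Tyrobp (DAP12) was at 0.43 with IL-3 and 0.95 without, and Fcer1g (the gamma chain) at 0.33 and 0.84, each a difference of -0.51. Syk was at -0.28 with IL-3 and 0.42 without (-0.70), and Card9, the adaptor downstream of Syk, differed by -0.12. The gene past 2-fold was Lat2, the membrane scaffold NTAL, at -0.92 with IL-3 and 0.33 without (-1.25, 2.38-fold). The differences of both main adaptor genes and Syk thus lay on the same side as that of Clec7a, whereas Hcst (DAP10) differed by 0.16.

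Further genes of this list below -0.5 were Prkcd (protein kinase C delta, -0.85), Ptprc (the phosphatase CD45, -0.73), Cblb (a ubiquitin ligase that dampens these signals, -0.66) and Nfatc2 (a calcium-regulated transcription factor, -0.50). The phosphatases that ITIMs recruit did not share a direction: Inpp5d (SHIP-1) was at -0.04 with IL-3 and 0.49 without (-0.52), Ptpn6 (SHP-1) at 0.42 and 0.04 (0.38), and Ptpn11 (SHP-2) differed by 0.15.

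**Figure D5:**
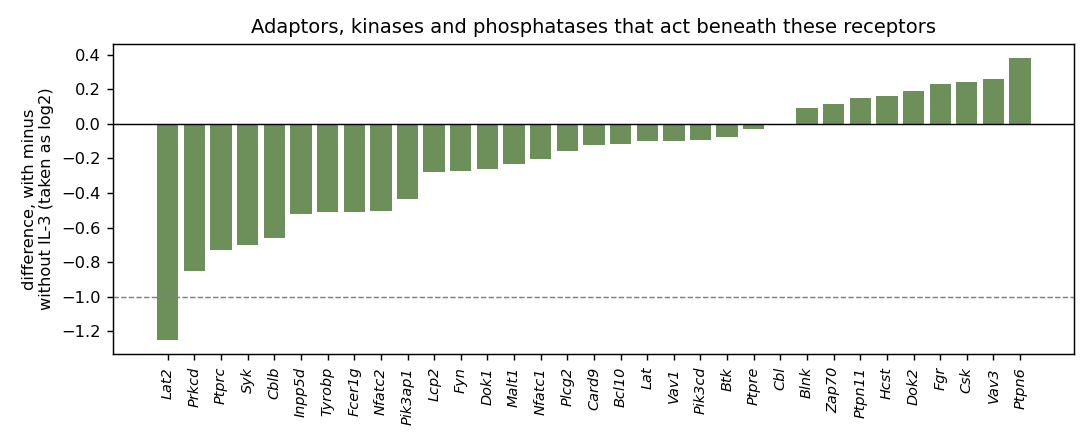
Difference between the arrays (with IL-3 minus without IL-3, taken as log2) of the 33 measured adaptor, kinase and phosphatase genes, in order of size; the dashed line marks 2-fold lower. Lat2 alone passes that line, 24 genes lie below 0, and Ptpn6 is the highest at 0.38.

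Of other paired receptors and lectins outside the named families, 35 of 37 were measured, 21 (60%) were below 0, beside 40.1% of all genes, and the median was -0.05; 2 (5.71%) were past 2-fold on the lower side and 0 on the higher side, beside 0.657% and 0.441% of all genes. Besides Cd69, Cd84, a self-binding receptor of the SLAM family, was at -0.15 with IL-3 and 0.96 without (-1.11, 2.16-fold). Cd200r3, an activating receptor of mast cells and basophils, differed by -0.88 and Lgals3, the lectin galectin-3, by -0.86. Scarb1, the receptor for high-density lipoprotein, lay on the other side, at 0.98 with IL-3 and 0.18 without (0.81). Among ligands, 11 of 21 were measured, 9 (81.8%) were below 0 and the median was -0.09. Cd47, the ligand that engages the inhibitory receptor SIRP alpha, was at 0.75 with IL-3 and 1.61 without (-0.86); 0 ligand genes reached 2-fold in either direction.

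Markers of cell types that carry these receptors were read on the same scale, and their part in the result was not tested. The shares of all genes to read beside these counts are 40.1% with a difference below 0 and, past 2-fold, 0.657% lower and 0.441% higher. In the neutrophil and eosinophil list 7 of 11 markers were below 0 (median -0.07) and 4 were at least 2-fold lower: Ngp, Prg2, Epx and Itgam were 7.31-fold, 6.77-fold, 4.25-fold and 2.11-fold lower with IL-3. In the mast cell and basophil list 6 of 11 were below 0 (median -0.09) and 3 were at least 2-fold lower. Fcer1a was 5.49-fold, Cpa3 2.16-fold and Cma1 2.14-fold lower, and Ms4a2 differed by -0.92. The macrophage and monocyte list was mixed, with 6 of 9 below 0 and a median of -0.11: Ccr2 was 2.10-fold lower and Adgre1 differed by -0.79, whereas Fcgr1 was 2.98-fold higher. The dendritic cell list had 1 of 9 below 0 (median 0.08) and 0 genes at 2-fold. The natural killer and T cell list had 3 of 12 below 0 (median 0.03), with differences of -0.80 for Cd3g and 0.92 for Il2rb. The B-lineage list had 5 of 12 below 0 (median 0.04).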

How the data were processed

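RNA of BCR-ABL Ba/F3 cells was hybridised to 2 arrays in 1 colour, 1 with and 1 without IL-3. The authors deposited 1 value per array for 28815 probe sets; how they were background-corrected, summarised and normalized is not given in the sources used here. The deposited values were taken as log2 relative to a baseline per probe set, since they lie on both sides of 0 (array medians -0.03 and -0.05) and many were equal and opposite between the arrays (within 1e-05 for 1203 of 19935 genes, and for 5 of the 80 receptor genes). The baseline cancels in the difference.

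Gene names came from the platform annotation. Only the 21780 probe sets that name 1 gene were used (1605 name several, 5430 none), and where a gene had several, that with the highest mean over the arrays was taken. Sequences and gene order are RefSeq's (GRCm38.p6); 64 of the 80 receptor genes had a start window. With 1 array per group, genes were counted by a fixed size and no test, standard error or p-value was computed; the number of arrays limits the precision. Named were receptor genes and members of 3 lists (adaptors, kinases and phosphatases; other paired receptors and lectins; ligands) that differed by at least 0.5, the extremes of each family, and key adaptors; 6 marker lists were read beside them. Other genes given were chosen after their values were seen, and the receptor genes, lists and motifs were chosen with earlier results of these data known. The counting code was run on simulated data with large known differences and the same noise for every gene. That run checks the code and does not measure the error of these arrays. Python 3.11.15, pandas 2.3.3, numpy 2.4.6 and statsmodels 0.14.6 were used. Alternatives were 3 scalings, the log base, the sign, the probe set rule, a filter, the fold and shared probe sets.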

Additional observations from a re-analysis of the deposited data

How the results depend on the processing

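After median centring, which shifts every difference by -0.015, all 6 genes stayed at least 2-fold lower (all genes, 0.682% lower and 0.416% higher). Taking the mean of a gene's probe sets (0.647% and 0.436%) could not change them, since each rested on 1 probe set. A filter at the array median kept 41 receptor genes (of all genes kept, 1.00% lower and 0.701% higher). It alters no value, and the 6 genes passed it through the array without IL-3, so their staying is no support. Quantile normalization gave 5, losing Pirb (all genes, 0.808% lower and 0.311% higher). Subtracting a loess trend gave 7, adding Klrb1f (all genes, 205 or 1.03% lower and 29 or 0.145% higher). Natural logs would give 8, adding Klrb1f and Clec2d (all genes, 375 or 1.88% lower and 419 or 2.10% higher, so that the balance turns). The 1.5-fold rule gave 9 (all genes, 2.71% lower and 3.52% higher). In each of these settings 0 receptor genes were higher. The median of the 80 genes ranged from -0.05 with the loess trend subtracted to -0.01. Under the filter, which keeps genes partly through the difference, the median of the 41 genes kept was -0.10. With the sign turned, 0 were lower and 6 higher. Their differences were 2.24 for Olr1, 2.0 for Igsf6, 1.70 for Clec12a, 1.56 for Clec7a, 1.30 for Cd33 and 1.02 for Pirb. The median of the 80 genes was then 0.01. Signal over background is unknown. No paired analysis was possible because each group has 1 array.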

Other observations

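The Clec4 genes form a second cluster on chromosome 6, from Clec4a1 to Clec4e, and 0 of its 9 measured genes reached 2-fold. Of all genes, 0.657% were lower and 0.441% higher by that rule. Beside shares this small, 0 of 9 does not set the cluster apart. Just outside it, between Foxj2 and Necap1, lay C3ar1, the receptor for the complement fragment C3a on myeloid cells, which was at 0.08 with IL-3 and 1.43 without (difference -1.35, 2.55-fold lower). Foxj2 and Necap1 differed by -0.05 and -0.12. C3ar1 was chosen after its value was seen.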
